A study of Mus musculus with 6 samples.

Results

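The genes described here are 10 brakes on proliferation that resting lymphocytes use: 4 inhibitors of cyclin-dependent kinases (Cdkn1a, Cdkn1b, Cdkn2c and Cdkn2d), the G-type cyclins Ccng1 and Ccng2, the antiproliferative BTG/TOB genes Btg1, Btg2 and Tob1, and the pocket protein gene Rbl2. They were taken by symbol, as every probe set that the array annotation assigns to exactly 1 of these symbols, which gave 20 probe sets for the 10 genes, out of 34945 probe sets for 18193 genes. The members and the lists of related genes were chosen with earlier results of these data known. The brightest probe set on average stood for its gene. All 10 genes passed the filter on dim signals, as did 19 of the 20 probe sets.

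The samples were cytotoxic T cells from spleens of P14 mice (strain C57Bl/6), which carry a transgenic T cell receptor for the gp33 peptide of lymphocytic choriomeningitis virus. All cells of both groups had been stimulated with gp33 for 24 h and exposed to a retrovirus encoding GFP fused to an HDAC7 mutant that cannot be phosphorylated, and were then sorted into 3 GFP positive samples, which carry the mutant, and 3 GFP negative samples, labelled control. HDAC7 is a class IIa deacetylase that acts as a transcriptional repressor in the nucleus and is exported to the cytoplasm once phosphorylated. The control is thus the untransduced cells of exposed cultures. Empty-vector cells were not part of the comparison, and the labels give neither the mutated residues nor the time between infection and sorting. The replicates are called biological, with no word on whether each had its own animal or culture. The p-values therefore measure only the spread between these samples, which may be technical.

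Cyclin-dependent kinases drive a cell from G1 into DNA replication by phosphorylating the retinoblastoma family of pocket proteins. The INK4 inhibitors (Cdkn2 genes) bind the kinases CDK4 and CDK6, while the CIP/KIP inhibitors (Cdkn1 genes) bind cyclin and kinase complexes more broadly. BTG and TOB proteins recruit the CCR4-NOT deadenylase, which shortens poly(A) tails, and in mouse T cells Btg1 and Btg2 maintain quiescence by promoting mRNA decay. Rbl2 encodes p130, the pocket protein that assembles the DREAM repressor complex in resting cells.

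As a check of the labels, the Hdac7 probe set that represents the gene averaged 8.15 in GFP positive and 4.83 in GFP negative samples (log2 signal). That is a change of 3.32 (limma adjusted p = 9.7e-07). A second Hdac7 probe set went the other way, at 6.19 in GFP positive and 6.74 in GFP negative samples. Its change was -0.55 (limma adjusted p over probe sets = 0.0022). The T cell genes Cd3e, Cd3g, Cd3d, Cd8a, Cd8b1 and Cd2 averaged 7.35 to 10.7 in GFP positive and 6.80 to 10.4 in GFP negative samples. Of the T cell genes Cd2 was lower by limma, at 8.79 in GFP positive and 9.82 in GFP negative samples, Cd3d did not pass and the other 4 were higher. Markers of other cell types were dim but not all at background. Near background were Ncr1 (NK cells) at 0.85 and 0.85, Itgam (myeloid cells) at 0.79 and 0.80 and Ms4a1 (B cells) at 0.83 and 1.26 in GFP positive and GFP negative samples. Above it were the B cell genes Cd79b at 4.35 and 4.50 and Cd22 at 2.10 and 2.39, and the myeloid genes Csf1r at 2.66 and 2.98 and Cd68 at 2.86 and 1.76, in GFP positive and GFP negative samples. Of these B cell and myeloid genes only Cd68 passed, with a rise of 1.11 (limma adjusted p = 4.3e-04). Csf1r was lower with the replicate number as a block (limma adjusted p = 0.0239). The erythroid gene Epor was lower too, at 2.69 in GFP positive and 3.08 in GFP negative samples. Of 3 markers of CD4 T cells Zbtb7b was higher, at 3.86 in GFP positive and 3.44 in GFP negative samples (limma adjusted p = 0.0196). Cd4, at 2.82 and 2.87, and Cd40lg did not pass. The summed linear signal of these 3 was 23.5 to 25.8 in GFP positive and 19.6 to 22.4 in GFP negative samples. The summed B cell signal was 32.5 to 38.7 in GFP positive and 33.7 to 45.1 in GFP negative samples, and the myeloid sum 24.9 to 26.3 and 22.2 to 25.3. The summed linear signal of the 6 T cell genes was 5452 to 6432 in GFP positive and 4202 to 4568 in GFP negative samples. Of 5 dendritic cell markers 4 were lower in GFP positive samples, or 3 with the block, where Siglech missed the threshold (limma adjusted p = 0.0572), and Itgax, with a change of 0.05, did not pass. These 5 had a summed linear signal of 21.8 to 29.0 in GFP positive and 57.2 to 101 in GFP negative samples. In GFP negative samples most of it came from Batf3, which activated T cells also express. Batf3 averaged 3.47 in GFP positive and 5.98 in GFP negative samples (log2 signal). The part of any of these markers in the results below was not tested. Control probe sets that match no mouse transcript read 0.60 to 0.72, so signals near 1 are close to background. Array medians ran from 1.62 to 1.66 in GFP positive and from 1.69 to 1.72 in GFP negative samples. Centring on the listed medians would raise the changes. They are taken over all probe sets other than controls. The median centring used as an alternative took the medians of probe sets past the dim filter instead, and it lowered the changes. With that centring the median gene's change was -0.14, against -0.02 as deposited (log2 scale). The number of arrays limits the precision.

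In GFP positive cells 7 of the 10 genes were higher and 0 were lower, and 3 did not pass the test. The 7 were Ccng2, Btg2, Cdkn2c, Cdkn1b, Btg1, Cdkn2d and Rbl2. The 3 that did not pass were Cdkn1a, Ccng1 and Tob1, each with a change below 0. The test was limma over 13194 genes with Benjamini-Hochberg adjustment at a threshold of 0.05. At an unadjusted p under 0.05 the counts were also 7 and 0. Across all genes tested, 24.6% were higher and 17.5% lower by the same rule. Groups did not overlap in the 7 genes that rose and in 0 genes in the other direction, against 29.7% and 24.2% of all genes. The median change of the 10 genes was 0.80 and that of all genes -0.02. With a change of at least 1.5-fold also required, 6 of the 10 were higher, against 11.6% of all genes. In bulk RNA, fewer cells that use a gene and less of its RNA in each cell cannot be told apart. All values below are log2 signals, and changes are GFP positive minus GFP negative.

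**Figure D1:**
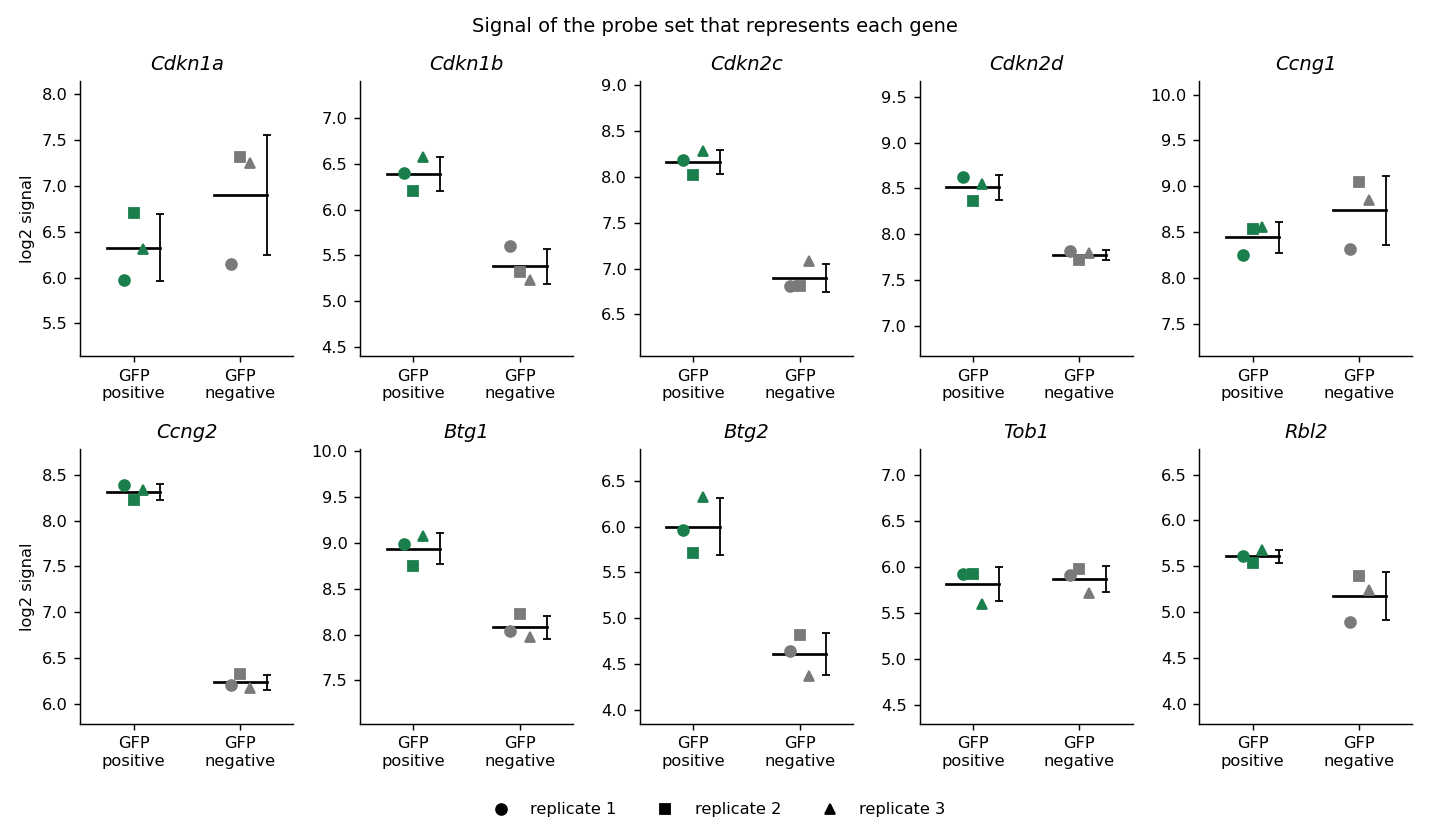
Log2 signal on the y axis of the probe set that represents each of the 10 genes, with GFP positive samples left of GFP negative samples. Symbols mark replicate numbers, bars the group mean and whiskers the SD (n = 3), and every panel spans the same range. GFP positive samples sit above GFP negative samples without overlap for Cdkn1b, Cdkn2c, Cdkn2d, Ccng2, Btg1, Btg2 and Rbl2, while the groups overlap for Cdkn1a, Ccng1 and Tob1.

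Both INK4 inhibitors among the members, Cdkn2c and Cdkn2d, rose. The INK4 genes Cdkn2a and Cdkn2b, which are near background, are described with the related genes below. Cdkn2c, which encodes p18INK4c, read 8.19, 8.03 and 8.29 in GFP positive samples, against 6.81, 6.81 and 7.08 in GFP negative samples. The lowest GFP positive sample lay well above the highest GFP negative one. The change was 1.27 ± 0.11 (SE, n = 3 each), or 2.41-fold, with a limma adjusted p of 1.3e-04. Cdkn2d, which encodes p19INK4d, read 8.63, 8.36 and 8.55 in GFP positive samples, against 7.81, 7.72 and 7.79 in GFP negative samples. Its groups were also separate, and it rose by 0.74 ± 0.09 (1.67-fold, limma adjusted p = 5.6e-04). Each of these genes has 1 probe set, so no second reading was available.

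Of the CIP/KIP inhibitors Cdkn1b passed the test and Cdkn1a did not. Cdkn1b, which encodes p27KIP1, the inhibitor that accumulates in resting T cells and is degraded on activation, read 6.39, 6.20 and 6.58 in GFP positive samples, against 5.60, 5.31 and 5.23 in GFP negative samples. All GFP positive samples were the higher ones, with a rise of 1.01 ± 0.13 (2.02-fold, limma adjusted p = 6.4e-04). Its second probe set averaged 1.80 ± 0.51 in GFP positive and 1.53 ± 0.18 in GFP negative samples (SD, n = 3), close to background, and did not pass. With 32 added in linear units to damp dim signals, the rise of Cdkn1b was 0.65, and as the mean over both probe sets it was 0.64, still past the threshold in both.

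Cdkn1a, which encodes p21CIP1, the inhibitor best known as a target of p53, read 5.97, 6.71 and 6.31 in GFP positive samples, against 6.15, 7.32 and 7.25 in GFP negative samples. The groups overlapped because GFP negative 1 lay far below the other GFP negative samples. The change was -0.58 ± 0.32 (limma adjusted p = 0.174, 95% confidence interval -1.30 to 0.15). Within replicate numbers the GFP positive sample was the lower one in 3 of 3 pairs, by -0.18, -0.61 and -0.94. With the replicate number as a block, Cdkn1a fell, at an SE of 0.15 and a limma adjusted p of 0.0244. That call was lost when both samples of number 2 (adjusted p = 0.108) or of number 3 (adjusted p = 0.0905) were left out, and held without number 1 (adjusted p = 0.0091). Without GFP negative 1 and with no block the change was -0.95 (limma adjusted p = 0.012), and without GFP negative 2 it was -0.37 (limma adjusted p = 0.413). Each of these arrays thus moves the value by over 1.5 times. A second Cdkn1a probe set read 5.05, 5.97 and 5.73 in GFP positive samples and 5.66, 6.69 and 6.45 in GFP negative samples, with pair differences of -0.61, -0.72 and -0.71. Its limma adjusted p was 0.129 without and 0.0042 with the block.

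The G-type cyclins, which do not drive the cycle as other cyclins do, gave 1 gene that passed, Ccng2, and 1 that did not, Ccng1. Ccng2 encodes cyclin G2, which is linked to cell cycle arrest and is induced by FOXO factors. It had the largest rise of the 10, with 8.39, 8.22 and 8.33 in GFP positive samples, against 6.20, 6.33 and 6.17 in GFP negative samples. The 2 groups lay far apart relative to their spread, and the change of 2.08 ± 0.09 (4.23-fold, limma adjusted p = 1.1e-05) was exceeded by the rises of only 0.447% of genes tested. Its dimmer probe set read 4.21, 3.51 and 4.50 in GFP positive samples, against 2.90, 3.05 and 2.50 in GFP negative samples, a smaller rise of 1.26 ± 0.25 (limma adjusted p over probe sets = 0.0077).

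Ccng1 encodes cyclin G1, a target of p53 that takes part in feedback on MDM2. It read 8.25, 8.53 and 8.55 in GFP positive samples, against 8.32, 9.05 and 8.84 in GFP negative samples. As for Cdkn1a, GFP negative 1 was the lowest control and brought the groups into overlap, and the change of -0.29 ± 0.18 did not pass (limma adjusted p = 0.230). GFP positive samples were lower in 3 of 3 pairs on each of its 3 probe sets. With the block the limma adjusted p of the gene was 0.0653, and without GFP negative 1 and with no block the change was -0.50 with an adjusted p of 0.0249. Without GFP negative 2 it was -0.14 (adjusted p = 0.568) and without GFP positive 1 -0.19 (adjusted p = 0.462), so the value rests on single arrays. The dimmest probe set read 4.69, 5.41 and 5.44 in GFP positive samples, against 5.67, 6.27 and 5.74 in GFP negative samples, and fell by 0.72 at a limma adjusted p of 0.0498, next to the threshold. Whether Ccng1 and Ccng2, or Cdkn1a and Cdkn1b, differ from each other in their change was not tested.

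**Figure D2:**
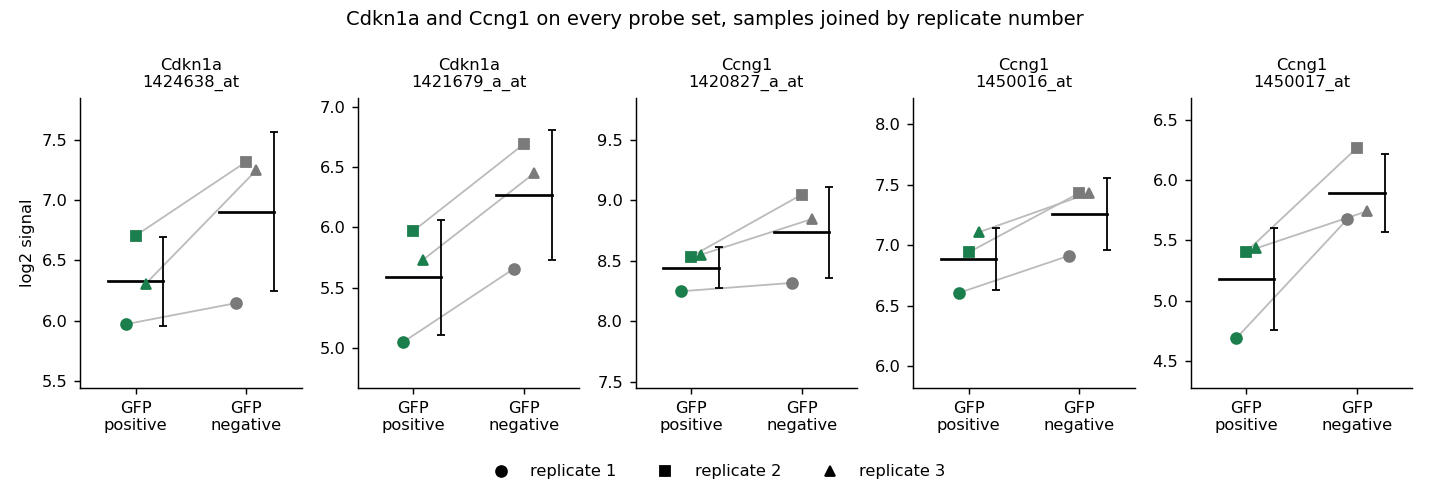
Log2 signal on the y axis of both Cdkn1a and all 3 Ccng1 probe sets, with GFP positive left of GFP negative samples and grey lines joining samples of the same replicate number. Every line runs lower at its GFP positive end, and replicate 1 is the lowest sample of its group on every probe set shown. Bars give the mean and whiskers the SD (n = 3).

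The BTG genes rose and their relative Tob1 gave no detectable change. Btg1 read 8.99, 8.75 and 9.07 in GFP positive samples, against 8.04, 8.22 and 7.98 in GFP negative samples. The groups were separate, with a rise of 0.86 ± 0.11 (1.81-fold, limma adjusted p = 6.7e-04). Its second bright probe set rose by 0.59 ± 0.13 (limma adjusted p over probe sets = 0.0111). The third probe set of Btg1 averaged 2.14 in GFP positive and 1.34 in GFP negative samples, not far above background, and its rise of 0.79 passed too.

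Btg2, which like Cdkn1a is a known p53 target but is also an early gene of lymphocyte activation, read 5.96, 5.71 and 6.33 in GFP positive samples, against 4.64, 4.81 and 4.37 in GFP negative samples. It rose by 1.39 ± 0.17 (2.62-fold, limma adjusted p = 5.1e-04), and by 0.77 with 32 added in linear units. A second probe set read 5.65, 5.40 and 6.65 in GFP positive samples, against 4.68, 4.72 and 4.01 in GFP negative samples, a rise of 1.42 ± 0.33 (limma adjusted p over probe sets = 0.0137). On both probe sets the difference was widest in replicate 3, at 1.96 and 2.63, and narrowest in replicate 2, at 0.90 and 0.67.

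Tob1, a repressor of proliferation and cytokine expression in T cells, read 5.92, 5.93 and 5.60 in GFP positive samples, against 5.91, 5.98 and 5.72 in GFP negative samples. The groups overlapped, and the change was -0.06 ± 0.12 (limma adjusted p = 0.730) with a 95% confidence interval of -0.33 to 0.22. These bounds leave out a change of the size seen for Btg1 or Btg2. Its second probe set, at 0.76 to 0.92 in GFP positive and 0.88 to 0.90 in GFP negative samples, was at background and was not tested.

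Rbl2 had the smallest rise that passed. It read 5.61, 5.53 and 5.67 in GFP positive samples, against 4.89, 5.39 and 5.24 in GFP negative samples. The groups did not overlap, but GFP positive 2 lay only slightly above GFP negative 2. The change was 0.43 ± 0.13 (1.35-fold, limma adjusted p = 0.0298). The call ended when GFP positive 1, 2 or 3 or GFP negative 1 or 3 was left out, with changes of 0.29 to 0.47 and limma adjusted p of 0.0549 to 0.0869, and after quantile normalization (0.29, adjusted p = 0.0840) or median centring (0.32, adjusted p = 0.0699). With 32 added in linear units the call held at a change of 0.24. A dimmer Rbl2 probe set averaged 3.18 ± 0.35 in GFP positive and 2.79 ± 0.18 in GFP negative samples, a change of 0.39 that did not pass (limma adjusted p = 0.134).

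Over the 19 probe sets past the filter, 11 were higher and 1 was lower, against 19.3% and 13.2% of the 27022 probe sets tested together. With the replicate block 10 were higher and 4 were lower, against 19.2% and 12.9% of all probe sets in that fit. The 4 were both Cdkn1a probe sets and the dimmer 2 of Ccng1, and the Rbl2 probe set lost its call (limma adjusted p = 0.0553). In the gene-level fit the block made Cdkn1a the only member lower, beside 25.5% of all genes higher and 18.8% lower.

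**Figure D3:**
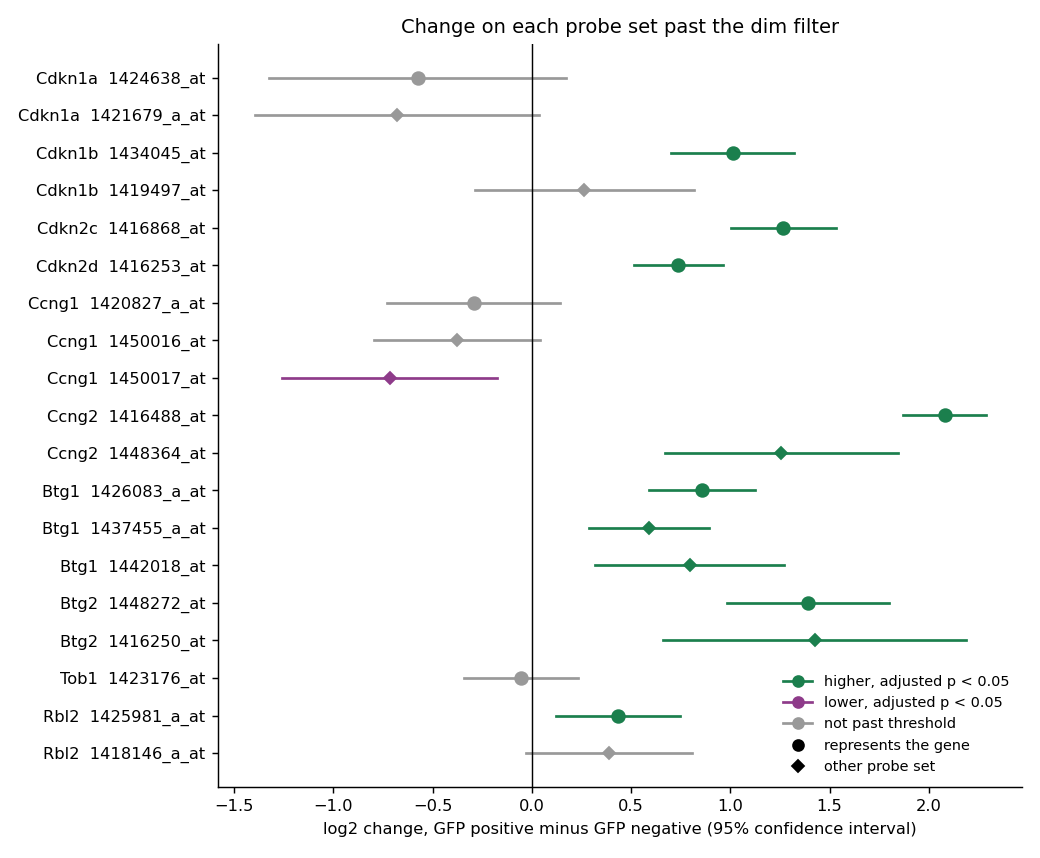
Log2 change (x axis, GFP positive minus GFP negative) with 95% confidence intervals for the 19 member probe sets past the dim filter, with no replicate block. Green marks the 11 probe sets that were higher, purple the 1 that was lower and grey those not past the threshold. Circles represent the gene and diamonds are other probe sets. Probe sets of 1 gene lie on the same side of 0.

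Promoter sequence is shown for every member that held one of the motifs searched, and for Ccng2, the member with the largest change. The 250 bases before an annotated start were read from RefSeq's GRCm38.p6 promoter table, which held all 10 members with 12 starts. Both strands were searched for 3 motifs, namely the FOXO core GTAAACA, the MEF2 consensus, since class IIa deacetylases bind MEF2 factors, and the p53 half-site consensus. Capitals mark the matches, and each sequence runs 5′ to 3′ on the strand of its gene, Ccng2 at chr5:93267323-93267572 (plus strand), Btg1 at chr10:96616751-96617000 (plus strand), Cdkn1b at chr6:134920151-134920400 (plus strand), Cdkn2d at chr9:21291210-21291459 (minus strand), Cdkn1a at chr17:29090729-29090978 (plus strand, the upstream of 2 starts) and Ccng1 at chr11:40755287-40755536 (minus strand).
Ccng2: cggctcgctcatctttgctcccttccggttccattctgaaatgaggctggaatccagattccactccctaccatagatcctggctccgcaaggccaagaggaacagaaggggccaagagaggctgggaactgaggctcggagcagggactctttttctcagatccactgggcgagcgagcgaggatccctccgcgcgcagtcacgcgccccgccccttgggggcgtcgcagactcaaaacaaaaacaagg
Btg1: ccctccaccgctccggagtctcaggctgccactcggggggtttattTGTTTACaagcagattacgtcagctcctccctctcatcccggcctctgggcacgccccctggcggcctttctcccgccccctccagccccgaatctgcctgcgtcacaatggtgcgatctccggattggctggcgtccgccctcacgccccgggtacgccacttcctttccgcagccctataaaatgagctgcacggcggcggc
Cdkn1b: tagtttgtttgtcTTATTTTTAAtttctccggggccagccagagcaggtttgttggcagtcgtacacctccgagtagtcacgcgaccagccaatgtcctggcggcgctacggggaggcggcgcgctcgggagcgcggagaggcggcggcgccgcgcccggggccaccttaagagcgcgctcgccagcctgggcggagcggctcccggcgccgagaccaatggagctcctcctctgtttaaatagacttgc
Cdkn2d: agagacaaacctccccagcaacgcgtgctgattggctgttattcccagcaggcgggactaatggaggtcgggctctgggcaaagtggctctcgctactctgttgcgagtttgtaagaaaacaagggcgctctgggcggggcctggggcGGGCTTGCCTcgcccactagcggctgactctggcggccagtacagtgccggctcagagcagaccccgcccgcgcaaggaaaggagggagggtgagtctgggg
Cdkn1a: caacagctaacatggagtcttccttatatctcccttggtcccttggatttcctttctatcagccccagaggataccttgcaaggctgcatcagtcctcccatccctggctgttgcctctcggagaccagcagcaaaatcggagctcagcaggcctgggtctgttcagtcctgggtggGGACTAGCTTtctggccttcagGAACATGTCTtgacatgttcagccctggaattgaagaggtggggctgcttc
Ccng1: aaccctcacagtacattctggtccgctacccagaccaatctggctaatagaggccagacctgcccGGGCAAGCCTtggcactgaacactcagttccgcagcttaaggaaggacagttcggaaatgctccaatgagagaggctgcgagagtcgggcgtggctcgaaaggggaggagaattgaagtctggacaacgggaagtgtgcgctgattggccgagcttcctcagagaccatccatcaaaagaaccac

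The p53 half-site stood in 3 of the 12 windows of the members, against 7.13% of the 32851 promoters in the table. These were the windows of Ccng1, Cdkn2d and the upstream start of Cdkn1a. The window of the other Cdkn1a start held no match. Cdkn1a held 2 matches, the nearer ending 42 bases before its upstream start, and Ccng1 held 1. Cdkn2d held 1 and rose, whereas Cdkn1a and Ccng1 did not pass the test. Btg2, which is also a known p53 target and rose, held none. The FOXO core stood in 1 of the 12 windows, that of Btg1, against 3.17% of promoters. The MEF2 consensus stood in 1, that of Cdkn1b, against 2.92%. The window of Ccng2, the gene with the largest rise, held none of the 3 motifs. No motif overlapped another. A match describes letters in this window and no binding was measured.

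More of the other inhibitors and relatives of the 10 genes rose than fell. Of 8 tested, 5 were higher, 1 was lower and 2 did not pass, with a median change of 0.56. The counts of this and the following lists stand beside 24.6% of all genes higher and 17.5% lower. The pocket protein genes Rb1 and Rbl1 rose by 0.60 and 0.53, Cdkn3, a phosphatase of CDK2, by 0.74 and Ccni, which encodes cyclin I, by 1.14. Probe sets disagreed for Ccni, whose 4 past the filter changed by -0.16 to 1.21, and for Rb1, whose other one changed by 0.09. The fifth, Cdkn2a, averaged 2.44 in GFP positive and 1.45 in GFP negative samples and the one that was lower, Cdkn1c, 1.23 and 1.60. Both are near background and lost their calls with 32 added in linear units. The 2 that did not pass were Tob2 and Cdkn2b. Tob2 changed by -0.15 (limma adjusted p = 0.150), with -0.38 to -0.07 on its 5 probe sets. It was lower after quantile normalization, median centring and 32 added in linear units (limma adjusted p = 0.0433, 0.0239 and 0.0420). The INK4 gene Cdkn2b averaged 1.26 in GFP positive and 1.29 in GFP negative samples, near background.

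The G1 cyclins, kinases and E2F factors that the inhibitors act on showed no shared direction. Of 20 tested, 7 were higher, 3 were lower and 10 did not pass, with a median change of -0.08. Cdk6, a partner of D-type cyclins and a target of the INK4 inhibitors, averaged 8.37 in GFP positive and 9.39 in GFP negative samples and fell by 1.02 (limma adjusted p = 5.7e-04). Cdk4, the other INK4 target, averaged 8.65 in GFP positive and 8.77 in GFP negative samples and did not pass (limma adjusted p = 0.320). The E2F genes E2f7, E2f2 and E2f8 rose by 1.15, 0.68 and 0.63, where E2f7 and E2f8 encode repressors of S phase genes and E2f2 an activator. A further repressor gene, E2f6, fell by 0.28 (limma adjusted p = 0.0196), and its other probe set changed by 0.03. Cdk2, the main kinase partner of cyclin E, rose by 0.75 and Ccne1 itself fell by 0.55. The cyclin genes Ccna2, Ccnd2 and Ccnd3 rose by 0.64, 0.47 and 0.40 (limma adjusted p = 0.0016, 0.0021 and 0.0090). The 3 probe sets of Ccnd3 changed by -0.05 to 1.34. Ccnd1 and Ccne2 did not pass. After median centring 6 of the 20 were lower and after quantile normalization 5, beside 28.9% and 21% of all genes.

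Genes that act on p27 and p21 protein stability gave 5 higher, 1 lower and 8 not passing of 14, with a median change of 0.06. Rnf123, a subunit of the ligase that degrades p27 in the cytoplasm in G1, rose by 0.75 and Usp19, a deubiquitinase, by 0.43. Skp2, which recognises p27 for degradation in S phase, rose by 0.38 (limma adjusted p = 0.0269) and lost its call after quantile normalization and median centring. Its scaffold Cul1 fell by 0.35. Fbxo5 and Cul4b, an inhibitor of the anaphase-promoting complex and a ligase scaffold, rose by 0.51 and 0.34.

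The DREAM list holds subunits of the complex through which p130 represses cell cycle genes, and also Dyrk1a, Foxm1 and Mybl2, which are not subunits. Of its 8 genes, 4 were higher and 0 were lower by limma, with a median change of 0.20. At an unadjusted p under 0.05 the counts were 5 and 1. Of the 4, Lin37 and Lin9 are subunits. Lin37, a core subunit, rose by 0.98 and Foxm1, an activator of mitotic genes, by 0.72. Dyrk1a, the kinase that promotes DREAM assembly, and Lin9 rose by 0.30 and 0.22, and both lost their calls after quantile normalization and median centring, Lin9 also with the replicate block. The 3 probe sets of Dyrk1a changed by -0.52 to 0.41. Mybl2 averaged 5.71 in GFP positive and 5.67 in GFP negative samples and did not pass (limma adjusted p = 0.798).

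Few genes listed for the CCR4-NOT deadenylase, the partner of BTG and TOB proteins, passed the test. The list also holds the poly(A)-binding protein gene Pabpc1, which is not a subunit, and the scaffold gene Cnot1 was not among those tested. Of 12 tested, 1 was higher and 0 were lower by limma, with 3 and 0 at an unadjusted p under 0.05 and a median change of 0.18. The one was Cnot6, a catalytic subunit, which rose by 0.51. Cnot7 and Cnot8, the CAF1 subunits that BTG proteins bind, changed by -0.02 and 0.22 and did not pass (limma adjusted p = 0.888 and 0.081). With 32 added in linear units 5 of the 12 were higher.

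Genes of the p53 pathway were divided. Of 18 tested, 4 were higher, 5 were lower and 9 missed the threshold, and the median change was -0.02. Pmaip1, which encodes the death factor NOXA, averaged 3.81 in GFP positive and 5.04 in GFP negative samples and fell by 1.23 (limma adjusted p = 1.3e-04). Ddb2, a DNA damage recognition gene, rose by 0.70, Trp53inp1, a stress-induced cofactor of p53, by 0.79 and Sesn1, an inhibitor of mTORC1, by 0.59. The other Trp53inp1 probe set changed by 0.06 and the lowest of Sesn1 by 0.17. Aen, an apoptosis-enhancing nuclease gene, fell by 0.51 and Sesn2 by 0.42. Gadd45a, counted as higher, averaged 1.85 in GFP positive and 1.54 in GFP negative samples. Perp, counted as lower, averaged 1.66 and 2.38. Both are near background and lost their calls with 32 added in linear units, Gadd45a also after median centring. Trp53 itself was not among the genes tested. Mdm2, the p53 ligase gene and itself a target, averaged 6.57 in GFP positive and 6.38 in GFP negative samples and did not pass (limma adjusted p = 0.181). The lower count was 8 after quantile normalization or median centring, beside 21% and 28.9% of all genes.

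Among FOXO factors and their known targets in T cells, 6 of 15 were higher, 2 were lower and 7 did not pass, with a median change of 0.36. The factor genes Foxo3 and Foxo4 rose by 0.88 and 0.71, although the lowest of their other probe sets changed by -0.11 and 0.04, and Foxo1 changed by 0.36 without passing (limma adjusted p = 0.103). Pik3ip1, a PI3K inhibitor gene, averaged 6.74 in GFP positive and 4.30 in GFP negative samples and rose by 2.44. Gadd45b rose by 0.96, with 0.15 on the lowest of its 3 probe sets. Bcl6 rose by 1.11 but averaged 2.11 in GFP positive and 1.00 in GFP negative samples. The latter is under the dim filter level of 1.27, and with 32 added in linear units the Bcl6 change was 0.10. Irs2 rose by 0.31 with overlapping groups (limma adjusted p = 0.0497). Its call was lost after quantile normalization, after median centring and with 32 added in linear units. Klf2, a FOXO target that holds T cells in quiescence, went the other way and averaged 3.58 in GFP positive and 6.79 in GFP negative samples (limma adjusted p = 3.3e-06). The homing receptor gene Ccr7 fell by 0.31, and the targets Il7r and S1pr1 changed by -0.08 and -0.06 without passing.

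Most of the other genes listed here for T cell quiescence rose, in a list made with earlier results known. Of 16 tested, 11 were higher and 0 were lower by limma, with a median change of 0.83. At an unadjusted p under 0.05 the counts were also 11 and 0. The quiescence gene Klf2, which fell by 3.21, was counted with the FOXO targets and is left out of these counts. Ypel3, a gene linked to growth arrest, averaged 6.71 in GFP positive and 4.63 in GFP negative samples and rose by 2.07. Lrig1, a growth factor receptor antagonist, averaged 5.38 in GFP positive samples and a low 2.37 in GFP negative samples, a rise of 3.00. Slfn2, whose loss in mice breaks T cell quiescence, rose by 1.39 and Txnip, an inhibitor of glucose uptake, by 1.33. Tsc1, a quiescence factor that restrains mTORC1, averaged 3.97 in GFP positive and 3.98 in GFP negative samples and did not pass (limma adjusted p = 0.983). These genes were listed with earlier results known, some of them rises already reported, so the count is a description.

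**Figure D4:**
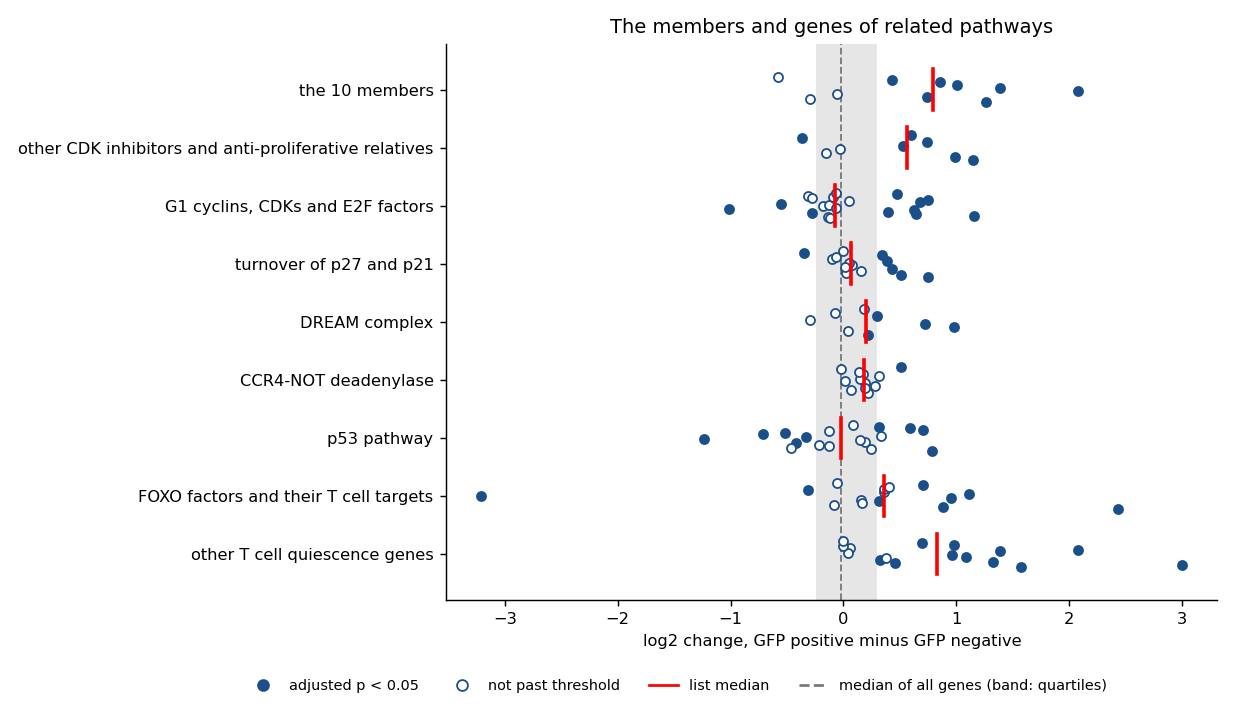
Log2 change (x axis, GFP positive minus GFP negative) of every tested gene in the 10 members and 8 related lists. Filled points passed the adjusted p threshold, open points did not, red bars mark list medians, the dashed line the median of all genes (-0.02) and the grey band its quartiles. The members and the other quiescence genes have medians of 0.80 and 0.83, while the G1 and p53 lists straddle 0. All lists were chosen with earlier results of these data known. Klf2 is plotted in the FOXO list and not among the other quiescence genes.

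**Figure D5:**
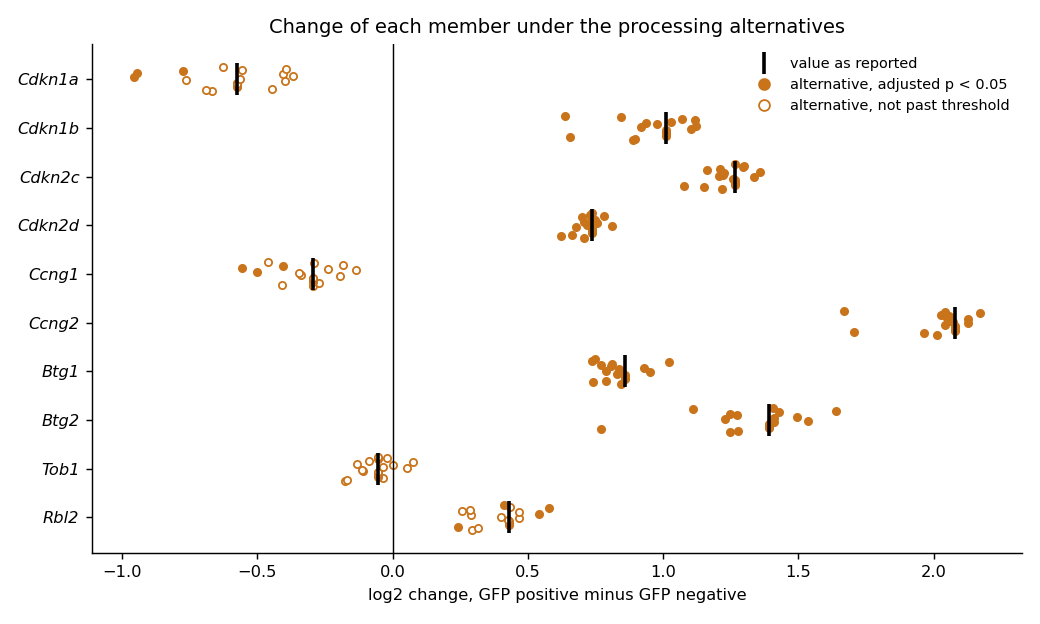
Log2 change (x axis, GFP positive minus GFP negative) of each member as reported (black bar) and under each alternative (points, filled where the adjusted p passed the threshold). Ccng2, Btg2, Cdkn2c, Cdkn1b, Btg1 and Cdkn2d keep filled points throughout, Rbl2, Cdkn1a and Ccng1 have both kinds, and Tob1 lies on both sides of 0 with open points.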

How the data were processed

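RNA of 6 sorted T cell samples was measured on Affymetrix mouse arrays, 1 for each sample. The deposited values are log2 signals for 45101 probe sets, a unit read from their range. Expression Console is the tool listed, per the submitters' processing notes, with no role stated. No source used here gives the probe summary, background correction or normalization. Values were used as deposited. Of the probe sets, 64 are controls, 34945 carry 1 symbol, 932 several and 9160 none in the annotation, and the last 2 kinds name no gene.

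Each of 18193 genes was represented by its brightest probe set on average. Probe sets under the 40th percentile of mean signal (1.27) were left out, leaving 13194 genes and 27022 probe sets, each tested by two-sided moderated tests of limma 3.58.1 (R 4.3.3) with group as sole term and Benjamini-Hochberg adjustment at 0.05. The fit was tested on simulated data. A second call rule also required a 1.5-fold change. Same-numbered samples deviated together from their group means (correlations of 0.474, 0.348 and 0.251 across genes), so the replicate numbers were taken to pair the samples, which the labels do not state. The block is given where it changes a call.

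The members, gene lists and motifs were chosen with earlier results of these data known. Named are the 10 members, Hdac7 and up to 4 called genes of each list by p. Any other gene was picked after seeing its value. Alternatives were quantile normalization, median centring, 32 added in linear units, filters at the 60th percentile or none, an intensity trend with a robust prior, the replicate block, leaving out samples, and a gene's mean over its probe sets. Leaving out 1 pair under the block, and quantile normalization or 32 added for the lists, were chosen after seeing the data.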

Additional observations from a re-analysis of the deposited data

How the results depend on the processing

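Of the 10 genes, Ccng2, Btg2, Cdkn2c, Cdkn1b, Btg1 and Cdkn2d kept direction and call in 19 of 19 alternatives each. The count of members higher was 6 or 7 in every alternative run, Rbl2 being the one that was lost. The count of members lower, 0 as reported, was 1 with the replicate block (Cdkn1a), 2 without both GFP negative 1 and GFP positive 3, and 2 with the replicate block when both samples of number 1 were left out (Cdkn1a and Ccng1). It was 0 with the block when number 2 or number 3 was left out. Leaving out 1 sample gave 0 to 2 members lower, with 2 without GFP negative 1, and a Cdkn1a change of -0.95 to -0.37. Tob1, never past the threshold, ranged from -0.132 to 0.0549 when 1 sample was left out, was above 0 without GFP positive 3 (0.0549) or GFP negative 2 (0.0016), and was 0.0749 without both GFP negative 1 and GFP positive 3. Member probe sets higher, 11 as reported, numbered 7 without both GFP negative 1 and GFP positive 3 and 7 with the replicate block when both samples of number 1, 2 or 3 were left out. Those fits keep 4 arrays. Member probe sets lower, 1 as reported, numbered 2 after median centring, 0 with 32 added in linear units, 0 with no filter, 4 with the replicate block, and 2 with the block when number 1 or 3 was left out. Leaving out 1 sample gave 0 to 3. In the related lists the replicate block ended the call of Lin9. It called 2 genes of the CCR4-NOT list in place of 1, adding the dim Tnks1bp1 (limma adjusted p = 0.0494). Lower p53 pathway genes were 6 in place of 5. Beside Cdkn1a the block changed no other gene-level call of a member or of these 8 lists. Among the cell type markers it changed the calls of Siglech and Csf1r. Over all 8 related lists 43 genes were higher and 12 lower, beside 24.6% and 17.5% of all genes tested. The lower count was 20 after median centring, where 28.9% of all genes were lower. The share of calls that were higher over all genes was 58.4% as reported, 48.9% after quantile normalization and 39.6% after median centring. Signals near background limit what the dim probe sets of Cdkn1b, Btg1 and Tob1 can show. The causes of these shifts were not tested.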
